A study of Homo sapiens with 2 samples.

Results

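Within 1 pool of interferon-gamma-treated and untreated tumor cells, 6 groups were compared, 3 against 3. Each group was a pair of antibody hashtags, DNA-tagged antibodies that mark the cells of a culture before pooling. The first trio comprised the cells carrying hashtags 2 and 6, 2 and 8, or 3 and 4, and the second trio those carrying 1 and 3, 1 and 4, or 1 and 6. All 6 pairs were chosen by their high level of IRF1, a measured value, and were set beside pairs 2+4 and 1+2, in which IRF1 was low. The trios together held 2104 of the 7201 cells that passed the filter (1107 in the first trio and 997 in the second), and the IRF1-low pairs held 660. The division into trios, and CXCL10 and GBP4 as its markers, were proposed with these data in view. All differences below are therefore descriptions of 1 pool of cells, without a test between conditions.

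The study exposed OVCAR5 cells to interferon-gamma (IFNy) and read them by droplet 3' single-cell RNA sequencing. OVCAR5 is an established cell line labelled as ovarian carcinoma, and these cells carried a CFP-positive reporter that senses IFNy. The labels list 18 conditions in the pool: no IFNy or 1, 10 or 100 ng/ml of it for 2, 6, 12 or 24 h, and frozen cells of the 24 h culture without IFNy and of that with 100 ng/ml. The map from hashtags to conditions is not among the sources used here, and no pair is given a dose, a time or a freezing state. All 8 pairs shared the line, the reporter, the pool and the libraries. Nothing states that a pair was more than 1 culture, and the pairs of a trio are not replicates of a condition.

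IFNy binds the receptor chains IFNGR1 and IFNGR2, and the kinases JAK1 and JAK2 then pass the signal on to factors that bind GAS-type elements in promoters such as that of IRF1. The IRF1 protein made from these transcripts binds ISRE-type elements, and many genes for chemokines, guanylate-binding proteins and antigen presentation carry such elements. SOCS1 limits the kinases. In tumor cells the pathway is known for attracting T cells through CXCR3 ligands, for raising peptide presentation and for inducing the checkpoint ligand PD-L1.

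Promoter sequences of 5 genes are shown because they carry one of the letter patterns of these elements. CXCL10, CXCL9, GBP1 and EPSTI1 were higher in the first trio, and IRF1 was not. Each sequence is the 250 bases upstream of the RefSeq start (GRCh38.p14, gene strand, 5′ to 3′), at chr4:76023498-76023747, chr4:76007510-76007759, chr1:89065209-89065458, chr13:42992242-42992491 and chr5:132490774-132491023, all on the minus strand. Capitals mark GAAA, any 2 bases and GAAA, an ISRE-type pattern, or TTCNNNGAA, a GAS-type pattern, found on either strand.
CXCL10: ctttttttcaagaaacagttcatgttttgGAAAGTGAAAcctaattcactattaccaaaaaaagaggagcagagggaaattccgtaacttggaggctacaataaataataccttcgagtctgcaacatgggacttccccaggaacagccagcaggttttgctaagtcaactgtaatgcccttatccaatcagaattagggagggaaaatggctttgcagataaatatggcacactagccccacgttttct
CXCL9: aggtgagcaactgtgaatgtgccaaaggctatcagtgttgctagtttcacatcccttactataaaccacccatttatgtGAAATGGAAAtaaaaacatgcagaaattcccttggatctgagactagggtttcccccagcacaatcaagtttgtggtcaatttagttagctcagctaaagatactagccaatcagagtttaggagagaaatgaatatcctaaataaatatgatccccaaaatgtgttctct
GBP1: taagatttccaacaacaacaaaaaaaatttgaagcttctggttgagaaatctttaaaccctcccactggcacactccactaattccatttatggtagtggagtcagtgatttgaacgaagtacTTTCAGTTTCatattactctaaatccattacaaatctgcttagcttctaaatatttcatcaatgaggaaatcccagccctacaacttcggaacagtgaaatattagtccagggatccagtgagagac
EPSTI1: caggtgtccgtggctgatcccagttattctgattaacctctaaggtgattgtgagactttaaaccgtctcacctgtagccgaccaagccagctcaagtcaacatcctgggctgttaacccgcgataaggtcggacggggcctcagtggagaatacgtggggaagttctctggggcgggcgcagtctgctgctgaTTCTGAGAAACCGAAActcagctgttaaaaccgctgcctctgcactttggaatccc
IRF1: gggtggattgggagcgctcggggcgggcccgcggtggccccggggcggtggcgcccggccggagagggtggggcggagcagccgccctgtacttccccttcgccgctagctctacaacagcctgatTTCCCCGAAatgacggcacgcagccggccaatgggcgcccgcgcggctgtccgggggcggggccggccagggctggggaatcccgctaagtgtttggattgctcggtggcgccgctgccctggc

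The ISRE-type pattern began 221 bases before the start in CXCL10, 171 bases before it in CXCL9 and, on the opposite strand, 127 bases before it in GBP1. In EPSTI1 a GAS-type match 56 bases and an ISRE-type match 50 bases before the start overlapped. IRF1 held only the GAS-type pattern, 124 bases before its start. Among the 35116 RefSeq promoter windows, 3.02% held the ISRE-type and 6.57% the GAS-type pattern. The windows of GBP4, CD74, JAK2, PSMB9 and IL18BP, all called higher, held neither, which says only that these letters are not in them. CXCL11, also called higher, held only the GAS-type pattern. TAP1, called higher, and SOCS1, not called, held the ISRE-type pattern. The sequences shown were picked for their patterns, so they do not tie a pattern to a step. Shares of promoters with a pattern are not given for groups of called genes, because fewer than 80% of their members had a promoter in the table (76 of the 120 genes called higher and 244 of the 324 called lower), so that check is void.

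Depth was alike in the 8 pairs. They held 304 to 398 cells and 9015397 to 12393821 gene UMIs each (unique molecular identifiers, 1 for each captured transcript), 82884355 in all. Median UMIs per cell ran from 27824.5 to 30146 and median genes from 5315 to 5471. The keratins KRT18 and KRT8 had 257808 and 112999 UMIs over the 8 pairs and EPCAM had 5224, while the ovarian lineage markers PAX8, WT1, MUC16 and MSLN had 302, 4, 16 and 12. T cell markers had 23 UMIs in all, with CD2, CD3E, CD3G and IFNG at 0, and endothelial and fibroblast markers had 95, with COL3A1, COL1A2, DCN and CDH5 at 0. Myeloid markers summed to 28.4 to 35.5 CPM in the first trio and to 34.8 CPM in each pair of the second, nearly all of it CD68 and CD14. Levels are in CPM, the UMIs of a gene per 1000000 UMIs of the pair.

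The trios differed in opposite senses for IRF1 and for the genes that mark the comparison. IRF1 was somewhat lower in the first trio, while CXCL10, a ligand of the chemokine receptor CXCR3 on T cells, and GBP4, a guanylate-binding GTPase, were several-fold higher there. For each gene the step is the median level of the first trio over that of the second, with an exact 95% interval for the 2 pairs at the medians that covers counting error only. A gene was called when the trios did not overlap and the step was at least 2-fold, among the 12396 genes with at least 100 UMIs in the 8 pairs. Under this rule 120 genes (0.968%) were called higher and 324 (2.61%) lower in the first trio, 444 (3.58%) in all. Trios that lay apart by any amount were common: 2458 genes (19.8%) were apart with the first trio higher and 3871 (31.2%) with it lower. Absence of overlap alone thus carries little weight, and the median gene had a log2 step of -0.07.

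**Figure D1:**
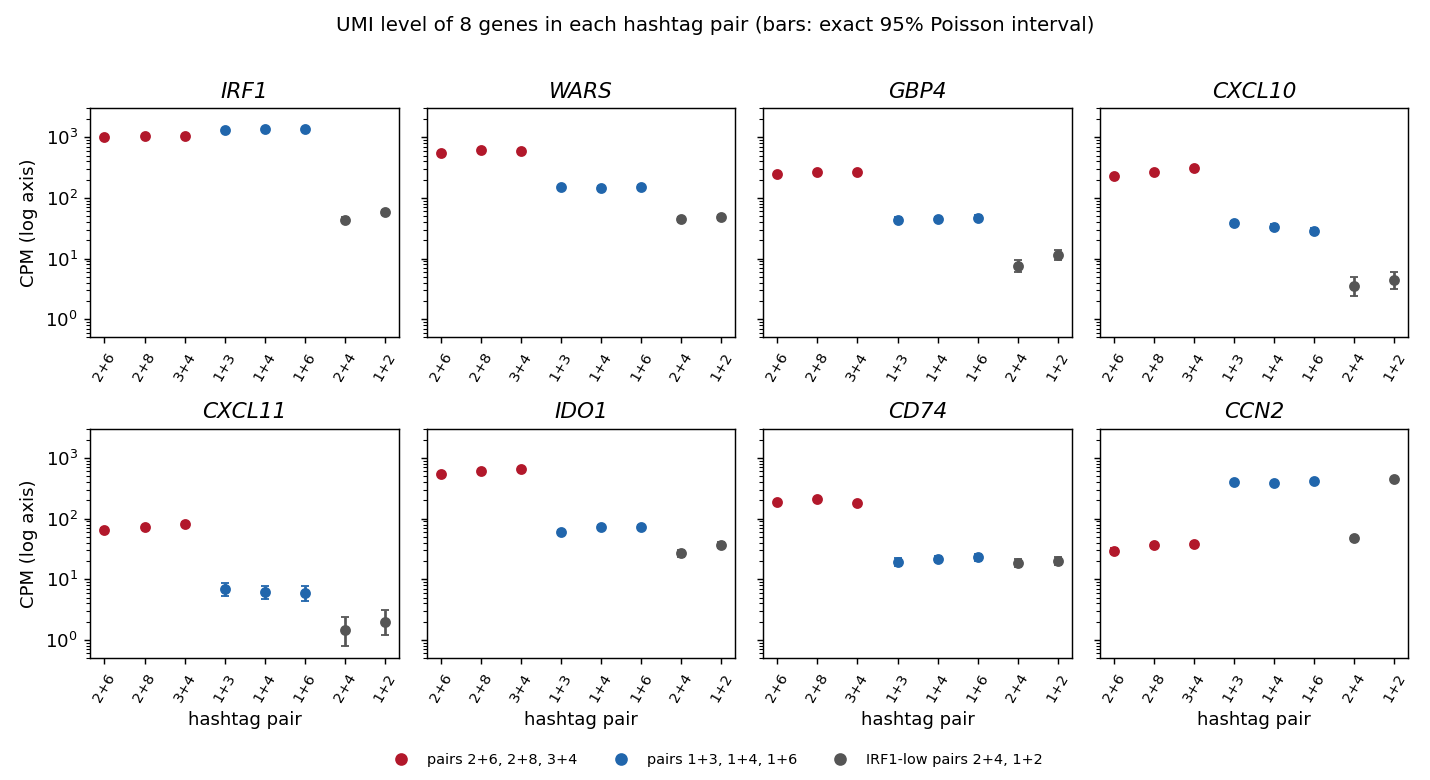
Level of 8 genes in each of the 8 hashtag pairs, in CPM on a log axis. Points are single pairs and bars are exact 95% Poisson intervals. IRF1 is slightly lower in the red first trio than in the blue second trio, the 6 panels from WARS to CD74 show the first trio higher, and CCN2 is low in the first trio and in pair 2+4 but high in the second trio and in pair 1+2.

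IRF1, at chr5:132481609-132490798 (GRCh38, GENCODE 29), stood at 1012, 1046 and 1058 CPM in pairs 2+6, 2+8 and 3+4 and at 1322, 1349 and 1357 CPM in pairs 1+3, 1+4 and 1+6. The IRF1-low pairs 2+4 and 1+2 had 43.7 and 57.9 CPM. All 6 chosen pairs lay far above these, as the choice required, and every pair of the second trio lay above every pair of the first, by 1.29-fold (1.26 to 1.32) at the medians. Almost every cell was positive: with each cell thinned to 10000 UMIs, at least 99.2% of the cells in each of the 6 pairs had an IRF1 UMI, against 32.1 and 33.6% in pairs 2+4 and 1+2. The 10% of cells with the highest IRF1 counts held 19.7, 20.4 and 19.4% of its UMIs in the first trio and 20.5, 19.6 and 20.4% in the second, so its UMIs were spread about equally over cells in both.

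CXCL10, at chr4:76021117-76023497, had 227, 269 and 309 CPM in pairs 2+6, 2+8 and 3+4. In pairs 1+3, 1+4 and 1+6 it had 37.9, 33.1 and 28.5 CPM, and in the IRF1-low pairs 2+4 and 1+2 3.50 and 4.38 CPM. The trios were far apart, with a step of 8.15-fold (7.30 to 9.12) and 5.98-fold (5.36 to 6.69) between the nearest pairs. The second trio was itself above the low pairs, by 9.45-fold over 2+4 and 7.55-fold over 1+2 at its median. The other CXCR3 ligands lie beside CXCL10 on chromosome 4 and showed the same order of groups. CXCL11 (chr4:76033682-76041415) had 64.8, 71.6 and 81.4 CPM in the first trio, 6.91, 6.17 and 5.88 in the second and 1.44 and 1.98 in the low pairs, a step of 11.6-fold (9.03 to 15.1), the highest of all 12396 genes. CXCL9 (chr4:76001275-76007488) was scarcer, with 18.5, 16.0 and 22.4 CPM in the first trio, 3.40, 5.99 and 3.44 in the second and 0.411 and 0.626 in the low pairs. Its step of 5.37-fold (3.68 to 8.09) rests on few UMIs in the second trio.

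GBP4, at chr1:89181148-89198932, stood at 248, 266 and 262 CPM in pairs 2+6, 2+8 and 3+4, at 43.6, 45.1 and 47.1 CPM in pairs 1+3, 1+4 and 1+6, and at 7.51 and 11.4 CPM in pairs 2+4 and 1+2. Its step was 5.81-fold (5.28 to 6.41). The 3 pairs within each trio were close, with a highest over lowest pair of 1.07-fold in the first and 1.08-fold in the second. The guanylate-binding proteins attack the vacuoles and membranes of intracellular pathogens. Of the 6 measured members 5 were called higher, the marker GBP4 among them, with a median log2 step of 1.86 against -0.07 for all genes. GBP1 was at 621, 645 and 649 CPM in the first trio, 284, 283 and 288 in the second and 28.3 and 44.3 in the low pairs, a step of 2.27-fold. GBP5 had 26.7, 28.7 and 36.7 CPM, 4.64, 4.33 and 5.55 CPM and 1.85 and 2.19 CPM in the same order, a step of 6.19-fold (4.51 to 8.67). GBP7 stepped by 6.32-fold and GBP3 by 2.02-fold, and GBP2, at 1.98-fold, missed the 2-fold limit although its trios were apart. The step thus ranged widely within a family whose genes lie side by side on chromosome 1. These genes share sequence, and the sources used here do not say how reads were split between them.

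The receptor and the kinases that carry the signal were flat, with 1 exception. Of 7 measured receptor and kinase genes 1 was called higher and none lower, and their median log2 step was -0.01. IFNGR1, IFNGR2 and JAK1 had steps of 0.870-fold, 0.996-fold and 1.03-fold. JAK2 had 20.01, 22.2 and 21.5 CPM in the first trio, 5.67, 6.45 and 7.54 in the second and 4.01 and 3.96 in the low pairs. The second trio thus lay just above the low pairs, and the step to the first trio was 3.33-fold (2.55 to 4.41).

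Transcription factors split into those with a step and those without. Of 16 measured, 5 were called higher and none lower, with a median log2 step of 0.76, and 15 were at least 2-fold above both low pairs in all pairs of the first trio (181 of all genes, 1.46%). In the second trio 9 of the 16 were (79 of all genes, 0.637%). Both counts include IRF1, which the choice of pairs placed above the low pairs. ETV7, a repressor of the ETS family, had 51.4, 58.1 and 57.4 CPM in the first trio, 17.4, 16.3 and 17.4 in the second and 1.03 and 2.19 in the low pairs, a step of 3.30-fold (2.77 to 3.95). For ETV7 the median of the second trio was 16.9-fold that of pair 2+4, the lower of the low pairs, which had only 10 ETV7 UMIs. This gene was thus above both low pairs in both trios and higher in the first.

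CIITA, the coactivator that switches on MHC class II genes, had 26.0, 26.8 and 28.7 CPM in the first trio, 11.9, 14.1 and 13.1 in the second and 1.03 and 0.834 in the low pairs. Its step was 2.04-fold (1.64 to 2.56), and its median in the second trio was 15.7-fold that of pair 1+2, the lower of the low pairs. SP100, a nuclear body protein, stepped by 2.01-fold, just inside the limit, and BATF3 by 2.45-fold. For BATF3 the low pairs differed in the same sense, with 4.83 CPM in pair 2+4 and 2.09 in pair 1+2, 2.32-fold apart. Its second trio, at 4.84, 4.60 and 4.88 CPM, was level with pair 2+4. BATF2, which pairs with IRF1 on some promoters, had 132, 142 and 142 CPM in the first trio and 128, 117 and 120.3 in the second, against 6.79 and 8.86 in the low pairs, and was not called. IRF8 (16.8, 17.7 and 17.2 against 16.5, 14.7 and 14.3 CPM) and IRF9 (65.9, 61.1 and 63.4 against 62.7, 62.2 and 63.6 CPM) were likewise high in both trios, with steps of 1.17-fold and 1.01-fold. For IRF9 the trios overlapped. BATF2, IRF8 and IRF9 thus stood well above the low pairs with little difference between the trios. IRF1 also differed little between the trios, but its height above the low pairs was set by the choice of pairs.

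Of the 8 measured negative regulators none was called, and their median log2 step was 0.07. SOCS1, the inhibitor of the JAK kinases, had 49.9, 51.4 and 56.4 CPM in the first trio, 26.1, 27.3 and 24.0 in the second and 3.08 and 2.82 in the low pairs. Its trios did not overlap and its step was 1.97-fold (1.69 to 2.30), so the 2-fold limit lies within its counting interval. USP18, which blocks type I interferon receptors, stood just outside the limit (1.98-fold), and the phosphatase PTPN1 was at 0.899-fold. Near the limit, IL18R1 and SP100 were the genes just inside and GCH1 the gene just outside with USP18, at 2.00-fold, 2.01-fold and 1.99-fold.

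Most measured MHC class II genes were higher in the first trio, and none was at least 2-fold above both low pairs in every pair of the second. Of the 15 members 9 had enough UMIs, 7 of those were called higher, none lower, and their median log2 step was 2.04. CD74, the invariant chain that guards the class II groove, had 190.4, 208 and 183 CPM in the first trio, 19.1, 21.6 and 23.1 in the second and 18.4 and 20.1 in the low pairs. Its step was 8.80-fold (7.69 to 10.1), and the second trio's median was 1.18-fold that of pair 2+4. The alpha chain HLA-DRA had 18.8, 23.5 and 17.96 CPM, 3.09, 5.06 and 3.33 CPM and 3.80 and 3.44 CPM in the same order, a step of 5.65-fold (3.85 to 8.56), and the protease CTSS, which trims the invariant chain, stepped by 6.78-fold. HLA-DRB1 stepped by 4.12-fold and HLA-DPA1 by 3.79-fold. For HLA-DPA1 the second trio (2.78, 2.58 and 1.89 CPM) lay above both low pairs (0.823 and 1.46 CPM), unlike for CD74 and HLA-DRA, where it overlapped them. The lysosomal reductase IFI30 had a step of 1.86-fold and was not called. CIITA, described above, was over 2-fold above the low pairs in both trios. HLA-DRB1 shares sequence with the other DRB genes, so its count is uncertain.

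In the MHC class I list 3 of 19 measured genes were called higher and none lower, and the median log2 step was 0.49. TAP1, a subunit of the peptide transporter, had 267, 275 and 276 CPM in the first trio, 98.5, 96.1 and 106 in the second and 22.2 and 25.1 in the low pairs, a step of 2.79-fold (2.60 to 3.01). Its partner TAP2 stepped by 2.12-fold and the immunoproteasome subunit PSMB9 by 2.25-fold. PSMB9 and TAP1 overlap on chromosome 6 and their reads cannot be told apart without strand, on whose use the sources used here are silent. The subunits PSMB8 and PSMB10 had steps of 1.84-fold and 1.72-fold, and the proteasome activator PSME2 one of 1.76-fold. Of the class I molecules themselves, HLA-E stepped by 1.72-fold, HLA-B by 1.56-fold and B2M, the light chain, by 1.25-fold. B2M had 2869.6, 2924 and 2921 CPM in the first trio, 2289, 2347 and 2334 in the second and 1926 and 2088 in the low pairs. TAP1, TAP2 and PSMB9 thus had larger steps than HLA-E, HLA-B and B2M. The steps of PSMB8, PSMB10 and PSME2 were near that of HLA-E.

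IDO1, which degrades tryptophan, had 549.5, 615 and 662 CPM in the first trio, 59.9, 72.3 and 72.0 in the second and 26.6 and 36.5 in the low pairs. The step was 8.54-fold (7.88 to 9.28), and the second trio's median was 2.70-fold that of pair 2+4 and 1.97-fold that of pair 1+2. WARS, the tryptophanyl-tRNA synthetase, had 555, 614 and 600.3 CPM, 152, 147 and 153 CPM and 44.7 and 48.2 CPM in the same order, a step of 3.95-fold (3.74 to 4.19). Unlike IDO1, it was over 2-fold above both low pairs in every pair of the second trio. A single cell held 124 of the 350 IDO1 UMIs in pair 1+2. The ratio of IDO1 to that pair, and this contrast with WARS, thus rest in part on 1 cell. Of the 10 measured genes for tryptophan use and immune checkpoints 3 were called higher and none lower, with a median log2 step of 0.52. The 2 PD-1 ligands, neighbours on chromosome 9, differed: PDCD1LG2 (PD-L2) had 4.36, 3.81 and 4.31 CPM in the first trio and 0.721, 0.460 and 0.555 in the second, a step of 7.78-fold (3.12 to 25.02). CD274 (PD-L1) had 35.6, 42.6 and 37.2 CPM and 26.4, 22.6 and 27.4 CPM against 3.29 and 5.11 in the low pairs, a step of 1.41-fold. PD-L1 was thus above the low pairs in both trios, at nearer levels, while PD-L2 had few UMIs outside the first trio.

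Antiviral effectors were mixed, with 10 of 39 measured genes called higher, none lower and a median log2 step of 0.42. SAMD9L, which restricts translation, had 161, 169 and 169 CPM in the first trio, 50.1, 45.5 and 49.7 in the second and 12.4 and 25.3 in the low pairs, a step of 3.39-fold. PARP14, an ADP-ribosyltransferase, and UBE2L6, a conjugating enzyme for ISG15, stepped by 2.11-fold and 2.02-fold, ISG20 by 2.18-fold, XAF1 by 2.97-fold and OAS2 by 3.01-fold. The most abundant member, ISG15, was not called (1154, 1120.4 and 1229.8 against 867, 869.7 and 883 CPM, 1.33-fold). IFIT1 and IFIT2, which bind viral RNA, were lower in the first trio without reaching 2-fold, at 28.6, 31.0 and 31.5 against 46.7, 47.5 and 55.5 CPM and 41.4, 47.8 and 50.7 against 59.3, 54.0 and 77.9 CPM. Their low pairs differed too, with 18.5 and 55.8 CPM of IFIT1 and 15.1 and 40.0 CPM of IFIT2 in pairs 2+4 and 1+2. Of the 4 measured APOL genes, 2 were called higher and none lower: APOL3 by 3.50-fold and APOL2 by 2.12-fold, with a list median log2 step of 0.91. APOL6, at 1.67-fold, was far above the low pairs in both trios.

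Other chemokines did not follow the CXCR3 ligands. Of 9 measured, none was called higher and 1, CXCL1, lower, with a median log2 step of -0.51. CXCL8, the neutrophil attractant, had 1.29, 42.3 and 14.4 CPM in pairs 2+6, 2+8 and 3+4, a spread of 32.8-fold within 1 trio, and 54.6, 37.6 and 34.2 CPM in the second trio. A single cell held 58.7% of the CXCL8 UMIs in pair 2+8 and 59.8% in pair 3+4. With all cells kept, 1 cell of pair 1+3 held 52.8% of that pair's 530 CXCL8 UMIs. Some cells (0.938 to 2.73% per pair) had at least 5 UMIs together of SERPINB3, SERPINB4, ZFHX4, PCSK1N and TFPI2. Without them, CXCL8 was at 0.993, 3.47 and 1.91 CPM in the first trio and at 38.2, 7.63 and 8.58 CPM in the second. CCL5 likewise ran from 4.60, 0.781 and 11.2 CPM in the first trio to 9.48, 2.58 and 8.21 CPM in the second, with 83.7% of the UMIs of pair 1+3 in 1 cell. Such spreads were rare: of 10282 genes with at least 300 UMIs, 0.195% spread 2-fold or more within the first trio and 0.214% within the second, and the median spread was 1.11-fold and 1.12-fold. The values of CXCL8 and CCL5 rest on very few cells. For CXCL10 the top cell held at most 7.56% of a pair's UMIs in the first trio and 16.3% in the second. In the second trio its UMIs still came from only 52 to 70 cells per pair. In pair 1+3, the 19 of 321 cells with at least 5 UMIs together of CCL5, HERC5, RSAD2 and OASL held 45.1% of them.

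Of 17 measured cell death genes 2 were called higher and none lower (median log2 step 0.32). FAS, a death receptor, had 12.1, 11.04 and 12.1 CPM in the first trio and 5.05, 4.79 and 6.54 in the second against 2.88 and 3.02 in the low pairs, and BAK1, which permeabilises mitochondria, stepped by 2.03-fold. BAX, the most abundant member that was not called, was at 1.04-fold, and the inflammatory caspase CASP4 at 1.55-fold. TNFSF10 (TRAIL), named after its values were seen, was level between the trios (41.1, 44.0 and 45.2 and 40.1, 48.2 and 47.8 CPM) and in pair 1+2, at 43.4 CPM, but had 6.89 CPM in pair 2+4. The step says nothing of this gene, and whether TNFSF10 was higher in the IRF1-high pairs depends on which low pair is taken. Of 13 NF-kB targets 1 was called higher, TNFAIP3 at 2.27-fold, and the adhesion molecule ICAM1 (213, 228 and 221 against 164, 163 and 166 CPM, with 30.4 and 36.8 in the low pairs) was high in both trios. Of 10 complement and acute phase genes 3 were called higher, the serum amyloid genes SAA1 (2.60-fold) and SAA2 (2.32-fold) and the protease C1R (2.27-fold). None of the NF-kB targets or complement genes was called lower, and the median log2 steps were 0.43 and 0.31. For SAA1 the second trio, at 65.8, 65.7 and 57.6 CPM, lay below both low pairs, at 79.5 and 72.8 CPM, and the first at 186, 154 and 171 CPM lay above them. SAA1 and SAA2 are near-identical and their split is uncertain.

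**Figure D2:**
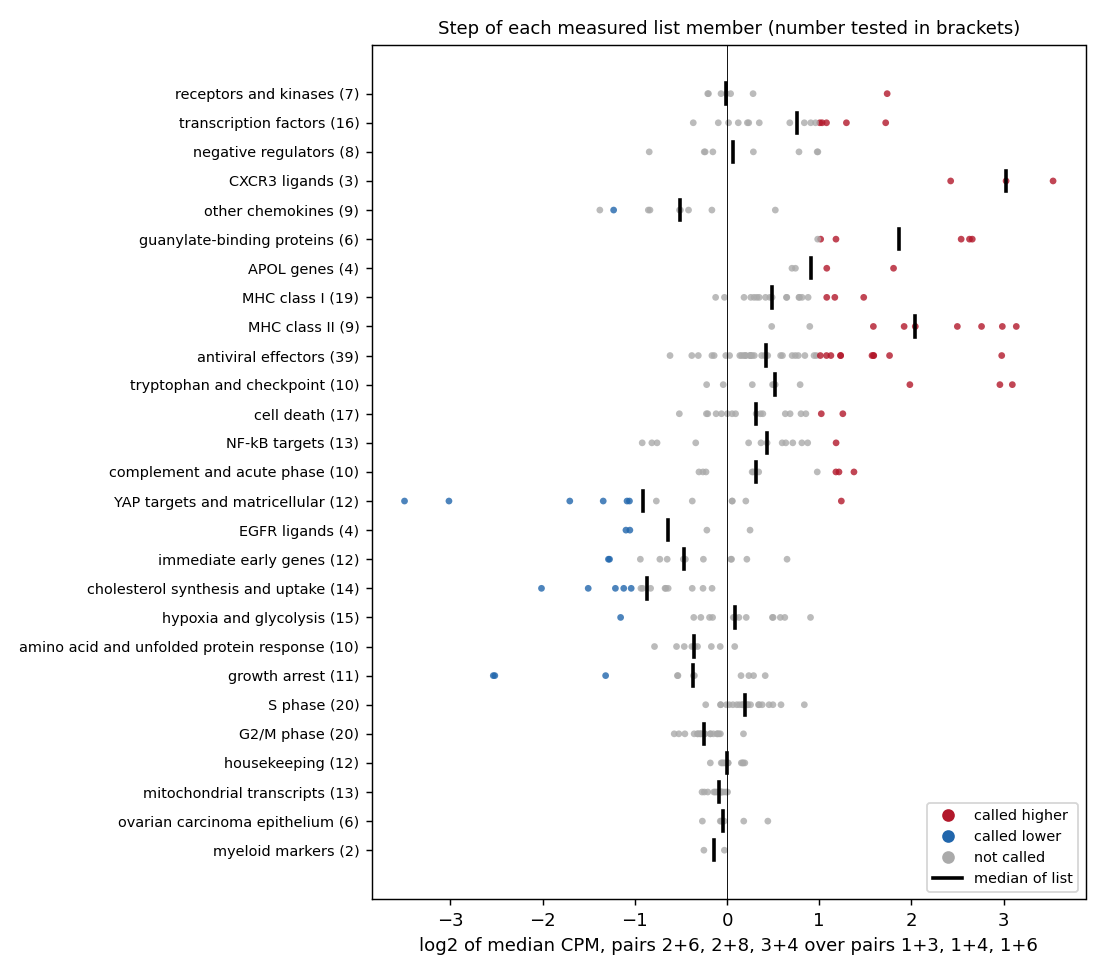
Log2 step of every measured member of each gene list, with the number tested in brackets. Red points were called higher and blue points lower in the first trio, grey points were not called, and black ticks mark list medians. The CXCR3 ligands (median 3.03), MHC class II genes (2.04) and guanylate-binding proteins (1.86) lie farthest to the right, and the YAP target (-0.91) and cholesterol (-0.87) lists farthest to the left. The CXCR3 list median is the step of CXCL10 itself, and the guanylate-binding list includes GBP4. Both genes were proposed as markers of the comparison.

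The genes higher in the first trio fell in kinds by their level in the low pairs. Of the 120, 78 were at least 2-fold above both low pairs in every pair of the first trio. In 27 of these the second trio was above them as well, so the gene stood in 3 levels: GBP1, GBP4, WARS, TAP1, CXCL9, CXCL10, CXCL11, ETV7, CIITA, EPSTI1 and IL32 were among them. In the other 51 the second trio did not pass that limit, among them IDO1, CD74, HLA-DRA, GBP5, GBP7, JAK2, PSMB9, PDCD1LG2, FAS and TNFSF13B. The rest of the 120 did not pass it in the first trio. They were 12 genes with pair 2+4 at least 2-fold above pair 1+2, and 30 others, such as TNFAIP3 and SAA1. Over the higher low pair, the lowest second-trio pair had a median of 0.243-fold in the 12 and 0.463-fold in the 30. The lowest first-trio pair had 0.812-fold and 1.10-fold. A further 42 genes were above the low pairs in both trios without a called step, such as SOCS1, BATF2, IRF8, IRF9, CD274, ICAM1, APOL6 and HLA-E. IRF1 is counted there too, its height above the low pairs being set by the choice of pairs. Another 60 were above the low pairs in the first trio only, also without a called step, such as PSMB8, IFI30, STAT3 and CASP4. No gene was at least 2-fold above both low pairs in one trio and 2-fold below both in the other. Genes below both low pairs were few, 12 (0.0968%) in the first trio and 2 (0.0161%) in the second.

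**Figure D3:**
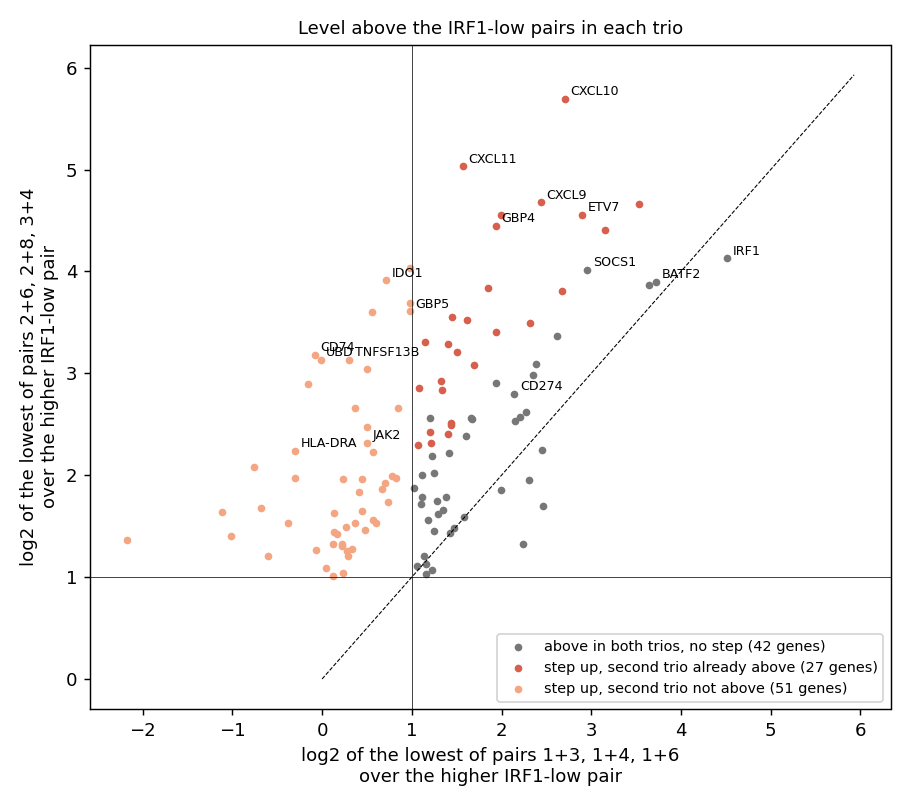
Level of the lowest pair of each trio over the higher IRF1-low pair, on log2 scales, the second trio on the x axis and the first on the y axis, for 3 kinds of gene with 42, 27 and 51 members. Thin lines mark 2-fold and the dashed line equal height. IRF1 lies right of the dashed line, at 22.8-fold on the x axis and 17.5-fold on the y axis, CXCL10 lies high above it, and CD74 and HLA-DRA lie left of 0 on the x axis with high y values.

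Outside the lists the 12 largest steps up among genes with at least 300 UMIs included several with known immune roles. TNFSF13B, which encodes the B cell survival factor BAFF, had 36.6, 42.4 and 43.5 CPM in the first trio, 5.15, 6.91 and 5.44 in the second and 1.95 and 4.17 in the low pairs, a step of 7.80-fold (5.79 to 10.7). IL18BP, the soluble inhibitor of interleukin-18, had 49.3, 51.9 and 47.0, 12.2, 11.9 and 14.5 and 3.29 and 3.23 CPM, a step of 4.05-fold. Both genes had groups that did not overlap, and IL18BP stood in 3 levels.

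EPSTI1, whose promoter is shown above, had 109.8, 116 and 109 CPM in the first trio, 26.7, 25.4 and 26.3 in the second and 5.66 and 9.28 in the low pairs, a step of 4.18-fold. The cytokine IL32 stepped by 3.79-fold, the histidine transporter SLC15A3 by 3.45-fold, the mitochondrial glutamate carrier SLC25A22 by 3.25-fold, TRAFD1 by 2.90-fold and the aminopeptidase LAP3 by 2.87-fold. The antisense transcript USP30-AS1 stepped by 5.08-fold, but without strand its reads cannot be told apart from those of USP30. MARCH4 (4.26-fold) and NAV3 (3.54-fold) were of another kind: pair 2+4 was 3.01-fold and 4.41-fold above pair 1+2, so both differed between the low pairs in the same sense. IRX3 had 4.36, 4.79 and 4.75 CPM in the first trio and 1.65, 1.57 and 4.22 in the second, where pair 1+6 was near the first trio, and its low pairs (5.55 and 4.27 CPM) were as high.

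The genes lower in the first trio showed a different pattern, because most also differed between the 2 IRF1-low pairs. CCN2, a matricellular target of the YAP coactivator, had 29.4, 36.2 and 37.8 CPM in the first trio and 409, 392 and 419.5 in the second, 11.3-fold (10.2 to 12.6) higher in the second. In the low pairs it had 47.3 CPM in pair 2+4 and 449 CPM in pair 1+2, a difference of 9.50-fold. The second trio was thus nearer to pair 1+2 and the first trio, at somewhat lower values, nearer to pair 2+4. The vasoconstrictor EDN1 (8.09-fold higher in the second trio), the YAP targets ANKRD1 (3.26-fold) and CCN1 (2.54-fold), the EGR corepressor NAB2 (5.85-fold), the AP-1 subunit JUND (5.28-fold) and the stress cytokine GDF15 (5.80-fold) had the same order. Their levels in pair 1+2 exceeded those in pair 2+4 by 3.79-fold, 3.56-fold, 2.92-fold, 9.79-fold, 3.73-fold and 2.63-fold. Of the 12 measured YAP and matricellular genes 6 were called lower and 1 higher, with a median log2 step of -0.91.

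Over all genes, pair 2+4 was at least 2-fold below pair 1+2 in 431 (3.48%) and at least 2-fold above it in 93 (0.75%). Among the 324 genes called lower in the first trio, 163 (50.3%) were at least 2-fold below in 2+4 and 310 (95.7%) were below it by any amount, where 53.1% of all genes were. Among the 120 called higher, 14 (11.7%) were at least 2-fold above in 2+4, 8 (6.67%) at least 2-fold below, and 75 (62.5%) were within 1.5-fold between the low pairs. No source ties a low pair to a trio, so a difference from one low pair cannot be told apart from a difference between the low pairs for these genes.

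**Figure D4:**
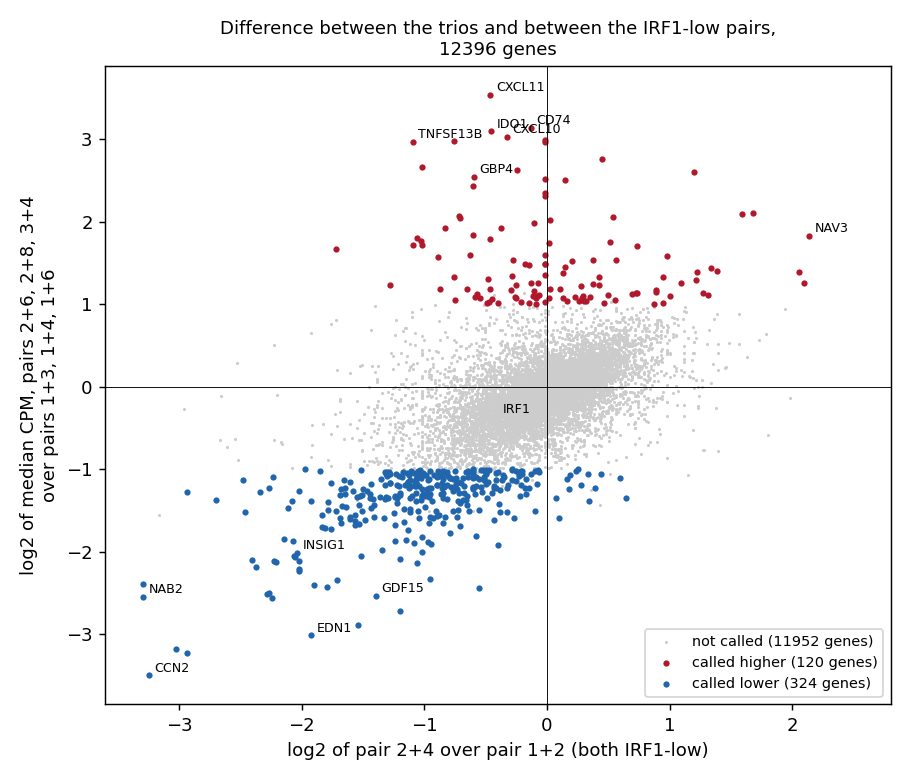
Log2 step between the trios (y axis) against the log2 ratio of pair 2+4 to pair 1+2 (x axis) for 12396 genes, with 120 called higher in red, 324 called lower in blue and the others in grey. Most red points, such as CXCL10, CD74 and GBP4, lie near 0 on the x axis, whereas most blue points, such as CCN2, NAB2 and INSIG1, lie to the left of 0.

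Of 14 measured cholesterol genes 5 were called lower and none higher, with a median log2 step of -0.87. In 13 of the 14 the trios did not overlap, all lower in the first, where 31.2% of all genes were. In 4 of the 14, pair 2+4 was at least 2-fold below pair 1+2, as in 3.48% of all genes. INSIG1, the sterol sensor partner, had 15.4, 20.4 and 15.6 CPM in the first trio, 62.9, 63.1 and 58.8 in the second and 18.3 and 75.0 in pairs 2+4 and 1+2, 4.03-fold (3.41 to 4.80) higher in the second. The synthase HMGCS1 and the isomerase IDI1 were 2.84-fold and 2.31-fold higher in the second trio. In pair 1+2 these 3 genes exceeded pair 2+4 by 4.10-fold, 2.84-fold and 2.15-fold. The epoxidase SQLE, at 148, 141 and 143 CPM against 268, 255 and 244 CPM, was not called.

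Of the 4 EGFR ligands AREG (330.5, 334 and 315 CPM in the first trio, 759.8, 707 and 696 in the second, 495 and 738 in the low pairs) and EREG were called lower, 2.14-fold and 2.08-fold higher in the second trio. HBEGF was not called, and its step of 1.19-fold was in the other sense, higher in the first trio. The list median log2 step was -0.64. Of 11 measured growth arrest genes 3 were called lower: GDF15, the antiproliferative BTG2 (5.73-fold higher in the second trio) and the CDK inhibitor CDKN1C (2.49-fold). The angiogenic factor VEGFA was the 1 of 15 hypoxia genes called lower (2.23-fold). No growth arrest, hypoxia or EGFR ligand gene was called higher.

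Among genes outside the lists, the 12 largest steps down all had pair 1+2 over 2-fold above pair 2+4. DUSP8, a MAP kinase phosphatase, was 9.38-fold higher in the second trio, the caveolar protein CAVIN2 7.42-fold, KLHL24 5.68-fold, the retinal reductase DHRS3 4.37-fold, the coactivator CITED2 4.31-fold, the factors DLX2 4.28-fold and ATOH8 4.15-fold, and YPEL3 4.64-fold. NAB2 and JUND are given above. The other two, AL135924.2 (5.40-fold) and RARA-AS1 (4.34-fold), are noncoding, and RARA-AS1 cannot be told apart from its sense partner without strand.

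Only 4 genes were called lower in the first trio while the second trio was at least 2-fold above both low pairs. All but ATF3 are named after their values were seen. ATF3, an immediate early stress factor, had 5.16, 7.32 and 6.60 CPM in the first trio, 18.4, 14.7 and 16.0 in the second and 0.925 and 7.09 in the low pairs, 2.42-fold (1.82 to 3.24) higher in the second. PRDM1, the repressor BLIMP1, had 4.28, 5.47 and 5.90, 11.1, 10.1 and 12.6 and 1.95 and 2.09 CPM, 2.04-fold higher in the second. The Wnt receptor FZD5 (2.01-fold) and the ubiquitin ligase TRIM31 (2.26-fold) complete the set, TRIM31 with under 4 CPM in every pair. In PRDM1 and FZD5 the low pairs were close to each other, so their difference between the trios was not mirrored there.

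A further 6 genes were above the low pairs in the second trio only, without a called step. The antiviral protein ZC3HAV1 had 80.8, 77.0 and 73.7 CPM in the first trio, 92.9, 92.1 and 101 in the second and 35.9 and 40.4 in the low pairs. The factor KLF4 had 45.6, 47.4 and 50.7, 55.0, 57.7 and 56.6 and 18.8 and 24.4 CPM, and the chemokine CXCL2 9.92, 10.7 and 12.6, 15.3, 15.1 and 16.9 and 3.19 and 5.94 CPM. In all 3 the second trio was the higher, by 1.21-fold, 1.19-fold and 1.42-fold. Like IRF1 (1.29-fold), these genes were highest in the second trio. Of 12 measured immediate early genes 2 were called lower, ATF3 and the scarce FOS (0.565, 1.66 and 1.06 against 2.58, 2.76 and 2.33 CPM), none higher, and the median log2 step was -0.46. FOSL1, the most abundant, was at 1.03-fold.

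In the reference lists no gene was called. These held 12 housekeeping, 13 mitochondrial, 6 epithelial, 20 S phase, 20 G2/M phase and 10 amino acid and unfolded protein genes and the 2 measured myeloid genes, CD68 and CD14. Their median log2 steps were 0.00, -0.08, -0.05, 0.20, -0.25, -0.35 and -0.14. In the amino acid and unfolded protein list 6 of the 10 genes had trios that did not overlap, all lower in the first trio, where 31.2% of all genes were. So were 10 of the 13 mitochondrial and 9 of the 20 G2/M phase genes, with none apart the other way. In the S phase list 10 of the 20 genes were apart with the first trio higher, where 19.8% of all genes were, and none with it lower. Of the 12 housekeeping genes 4 were apart with the first trio higher and 2 with it lower. EEF1A1 had 4205, 4123 and 4276 CPM in the first trio and 4354, 4384 and 4356 in the second. The summed G2/M genes stood at 2682, 2357 and 2204 CPM in the first trio and at 3004, 2711 and 2835 in the second, and the summed S phase genes at 1637, 1621 and 1652 against 1482, 1309 and 1504. Neither sum overlapped between the trios, although the G2/M sum varied more within the first trio than across the gap between them. Their part in the steps was not tested.

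The share of cells with a transcript moved with the level. Each cell was thinned to 10000 UMIs, which left out 5 to 19 cells per pair. For GBP4, 80.1, 82.1 and 80.1% of cells had a UMI in pairs 2+6, 2+8 and 3+4, 27.2, 29.2 and 35.6% in pairs 1+3, 1+4 and 1+6, and 5.40 and 10.6% in pairs 2+4 and 1+2. Unthinned, these shares were 93.7, 96.1 and 95.8%, 54.5, 56.7 and 58.2% and 16.9 and 18.2%. The exact binomial interval for pair 2+6 was 75.7 to 83.9% and that for pair 1+3 was 22.4 to 32.5%, thinned. For CXCL10 the thinned shares were 36.3, 37.0 and 40.4%, 12.3, 11.7 and 10.8% and 3.17 and 3.43% (unthinned 48.5, 50.6 and 52.8%, 20.2, 18.8 and 17.1% and 10.3 and 11.2%). The second trio lay above the low pairs in both genes, and the first trio above the second, without overlap. Free RNA can place a UMI in a cell that does not express the gene, and it was not measured apart from expression. The shares in the IRF1-low pairs, at like median depth, are at most an upper limit on it, since single cells of pair 1+2 held up to 9 GBP4 UMIs.

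CXCL11 had a UMI in 30.3, 31.5 and 33.7% of thinned cells of the first trio, 4.43, 5.00 and 6.10% of the second and 1.27 and 1.25% of the low pairs (unthinned 46.7, 46.1 and 49.9%, 9.66, 11.02 and 12.5% and 3.75 and 4.41%). IDO1 had one in 84.7, 85.8 and 86.0%, 40.8, 43.9 and 46.1% and 21.6 and 19.3% (unthinned 95.5, 93.9 and 94.99%, 67.0, 69.6 and 73.4% and 48.8 and 45.6%). For CD74 the shares were 63.2, 67.0 and 65.5% in the first trio, 13.3, 17.5 and 16.3% in the second and 14.9 and 14.02% in the low pairs (unthinned 82.9, 82.4 and 80.7%, 31.2, 33.9 and 37.2% and 35.3 and 32.9%). The CD74 share of the second trio lay around that of the low pairs, and a difference was not detectable at this depth. CCN2 went from 17.1, 23.1 and 22.1% in the first trio to 83.2, 81.4 and 82.4% in the second, with 28.6 and 89.4% in pairs 2+4 and 1+2 (unthinned 39.7, 43.6 and 41.2%, 91.3, 90.1 and 92.1% and 44.1 and 95%).

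**Figure D5:**
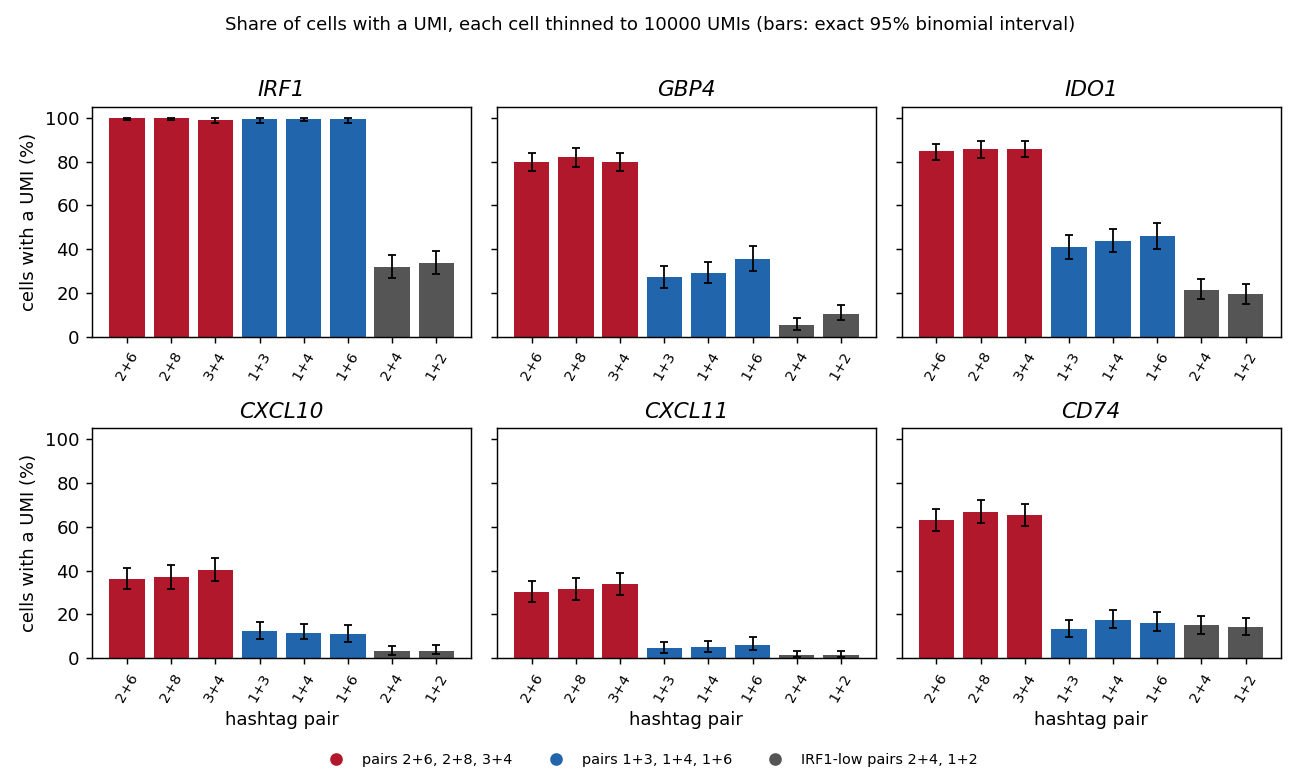
Share of cells with at least 1 UMI of 6 genes in each pair, each cell thinned to 10000 UMIs, with exact 95% binomial intervals. IRF1 is near 100% in all 6 chosen pairs, GBP4 goes from 27.2 to 35.6% in the second trio to 80.1 to 82.1% in the first, and CD74 in the second trio is at the level of the IRF1-low pairs.

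Most UMIs of CXCL10 came from a minority of cells, more so in the second trio. The 10% of cells with the highest CXCL10 counts held 72.5, 62.1 and 64.5% of its UMIs in the first trio and 91.3, 91.1 and 91.8% in the second, unthinned. For GBP4 the top 10% held 28.8, 27.0 and 26.1% and 49.9, 45.9 and 45.6%. GBP4 was thus spread over more cells than CXCL10, and both were spread over more cells in the first trio, where counts were higher. A small population rich in CCL5, HERC5, RSAD2 and OASL, with at least 5 UMIs of them together, made up 5.00 to 8.97% of each of the 8 pairs. It held 13.8, 15.1 and 19.5% of CXCL10 UMIs in the first trio and 45.1, 10.6 and 24.1% in the second. Without it the step of CXCL10 was 10.6-fold and that of GBP4 6.47-fold, both larger than with it.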

How the data were processed

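The 2 samples are the gene expression library and the hashtag library of 1 pool. The deposited values are UMI counts per barcode, as whole numbers, not normalized. Counting was done with Cell Ranger, version 5.0.1 per the file headers and 2.1.1 per the submitters' processing notes, on GRCh38 per those notes. Of 7804 barcodes 7201 were kept, those with 500 genes or more and no more than 20% of UMIs from mitochondrial genes. A cell's pair was its 2 highest of 8 hashtags, kept where the second-ranked was at least 5 times the third plus 1 (6114 cells). This removed cells of mixed hashtags, and no doublet caller was run, so doublets within a pair remain. UMIs were summed per pair and scaled to CPM, and counts under 3 were set to 3 for ratios. With 1 pool there is no replicate, so no p-value or SD is given. Poisson, conditional and binomial intervals are exact, at 95%, and cover counting error only.

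The members and gene lists were chosen with earlier results of these data known. The genes named are CXCL10, GBP4 and IRF1, in each list the up to 4 called members with the highest mean level and the 1 most abundant member not called, and outside the lists the 12 called genes with the largest step each way among those with at least 300 UMIs. A last part of the rule, for genes 2-fold above both low pairs in one trio and 2-fold below both in the other, named none. Some genes that the rule names are not reported here. Other genes were added as examples after their values were seen. The procedure was tested on simulated data. Alternatives changed the call rule, the scaling, the weight of cells, the filters on cells and hashtags, the depth per cell and the cells or pairs included. Python 3.11.15, numpy 2.4.6, scipy 1.17.1, pandas 2.3.3 and matplotlib 3.10.9 were used.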

Additional observations from a re-analysis of the deposited data

Results flagged for a closer look

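CXCL10 and GBP4 also appeared in barcodes that no comparison used. In the 603 barcodes that failed the cell filter CXCL10 had 346 UMIs, or 87.2 CPM (exact Poisson interval 78.3 to 96.9), and GBP4 had 492 UMIs, or 124 CPM (113 to 135). A limit of 3 UMIs there is 0.756 CPM. In the 1087 cells that passed the filter but had no clear pair CXCL10 had 9135 UMIs, or 173 CPM (170 to 177), and GBP4 had 10452 UMIs, or 198 CPM (194 to 202), where 3 UMIs are 0.0568 CPM. All 4 values lie between the levels of the second and the first trio and above both IRF1-low pairs. The barcodes without a pair may come from any of the pool's conditions.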

How the results depend on the processing

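Main counts were 120 genes higher and 324 lower in the first trio. With at least 20 UMIs in place of 100 the lower count was 539, and with at least 500 the counts were 78 and 130. A limit of 1.5-fold gave 419 and 1048, 4-fold gave 24 and 31, and a demand that the nearest values be 2-fold apart gave 57 and 113. Leaving out 1 pair at a time gave 107 to 131 higher and 327 to 363 lower. Cells thinned to 10000 UMIs gave 89 and 245, of which 68 and 154 were among the main calls. Median-of-ratios scaling moved the median gene by 0.07 on the log2 scale and gave 144 and 259. Without cells rich in CCL5, HERC5, RSAD2 and OASL the steps of CXCL10 and GBP4 were 10.6-fold and 6.47-fold. The cause of these differences was not tested, beyond the changed limits themselves. Of 288 values for 18 other genes under 16 settings, 280 stayed within the main counting interval, 8 moved and 0 reversed. No paired analysis was possible because the pairs carry no replicate numbers and come from 1 pool. Depth limits scarce genes, such as PDCD1LG2 with 163 UMIs in the 8 pairs, whose steps have wide intervals.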
